A study of Mus musculus with 6 samples.

Results

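Autophagy genes were examined in poly(A)-selected RNA of SB28, a mouse glioma line. The set was taken by gene symbol: every row of the count table whose symbol starts with Atg and a digit, plus a fixed list of named genes of initiation, membrane growth, cargo capture and transcriptional control. This gave 42 of the 55453 symbols in the table. The filter on low counts was passed by 41 of them, and the one left out was Atg4a-ps. Its symbol marks a pseudogene, although GENCODE release M21 lists it as protein-coding. Atg4a-ps had 6, 5 and 2 counts in knockout libraries 1, 2 and 3, against 1, 9 and 4 counts in wild-type libraries 1, 2 and 3. No measured value decides which genes belong to the set. It was, however, proposed with results of this comparison known, so the counts below describe these genes and are no support for a change of autophagy as a whole.

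The 6 libraries fall into 3 labelled PP2A knockout (PP2AcKO) and 3 labelled wild type (PP2AcWT), all with SB28 as source and a C57BL/6 strain label. PP2Ac is the subunit of protein phosphatase 2A that removes phosphate from serine and threonine, and the series title ties its loss to STING and type I interferon signalling. According to the series' overall design, SB28 was implanted in WT mice and LysMcrePP2Acfl/fl mice, where Cre under the lysozyme M promoter acts in myeloid cells, and tumour tissue was dissociated. The sample labels instead give SB28 itself as the source of the genotype, and which description holds is not settled by them. Nor do they say how the knockout was made, whether it is 1 clone, or whether the libraries of a group were separate cultures, so the p-values reflect only how these libraries vary, possibly for technical reasons. Library totals ran from 40245915 to 46149908 counts in knockout and from 38735864 to 49344079 in wild type. Ppp2ca, which encodes the targeted subunit, had 217, 187 and 193 CPM (counts scaled to the size of the library) in knockout libraries 1, 2 and 3, against 274, 244 and 247 CPM in wild-type libraries 1, 2 and 3. That is a log2 fold change of -0.36 (edgeR adjusted p = 0.00377). The labels do not say which exons were removed, and 41.3% of the Ppp2ca exon bases overlap genes on the opposite strand, so this is a weak check of the genotype. Its paralog Ppp2cb averaged 125 ± 2.05 CPM in knockout and 85.9 ± 2.28 CPM in wild type (SD, n = 3 libraries each, as for all means below). The marker lists for leukocytes were near silent: the 7 T and B cell markers summed to at most 0.0896 CPM in knockout and 0.0979 CPM in wild-type libraries, with Cd3e and Cd8a at a count of 0. Of 8 myeloid markers 7 were below 0.5 CPM in both groups, with Adgre1 and Tyrobp at 0, and Cd68 made up most of the list's sum of 4.75 to 5.31 CPM in knockout against 3.17 to 3.57 CPM in wild-type libraries. The oligodendrocyte lineage and glioma list summed to 282 to 300.1 CPM in knockout and 502 to 543 CPM in wild type. Its members differed in direction: Nes averaged 164 CPM in knockout and 367 CPM in wild type, Sox2 78.4 CPM in knockout and 116 CPM in wild type, Pdgfra 49 CPM in knockout and 39.8 CPM in wild type, and Olig1, Olig2 and Sox10 had no count in any library. Endothelial markers summed to 419 to 456 CPM in knockout and 399 to 430 CPM in wild type, nearly all from Cdh5 with Cldn5 at 0, and pericyte and fibroblast markers to 1261 to 1829 CPM in knockout and 1590 to 2270 CPM in wild type, mostly Col1a1. Other genes of that list lay the other way, with Dcn at 32.7 CPM in knockout and 1.28 CPM in wild type and Pdgfrb at 129 CPM in knockout and 81.1 CPM in wild type. Neuron markers gave 10.4 to 14.3 CPM in knockout and 12.2 to 14.5 CPM in wild type. Astrocyte markers gave 4.1 to 5 CPM in knockout and 9.67 to 11.3 CPM in wild type. Most of that sum was Aldh1l1, at 3.39 CPM in knockout and 10.3 CPM in wild type. Slc1a3 lay the other way, at 1.2 CPM in knockout and 0.25 CPM in wild type, with Aqp4 at 0. The part of any of these marker lists in the results was not tested.

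Autophagy encloses cytoplasm in a double membrane, the autophagosome, and delivers it to the lysosome. A kinase complex around ULK1 starts the process, a lipid kinase complex around PIK3C3 and Beclin 1 marks the membrane with phosphatidylinositol 3-phosphate, and lipid carriers extend it. Ubiquitin-like conjugation then fixes proteins of the ATG8 family (LC3 and GABARAP) to the membrane, where they bind receptors such as p62, the product of Sqstm1, that carry cargo. The receptors and lipidated LC3 are themselves degraded in the lysosome, so message levels do not measure the rate of the pathway. The transcription factors TFEB and TFE3 switch on autophagy and lysosome genes through an E-box motif in their promoters.

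Promoters are shown for Atg3 and Atg5, conjugation genes that hold this motif, and for Sqstm1, the member with the highest fold change, which does not. Each window runs from 250 bases before to 50 bases after a RefSeq start site (GRCm38.p6), is printed 5′ to 3′ on the gene's strand, and has the E-box CACGTG or its 8-base form TCACGTGA, the core of the CLEAR element bound by TFEB and TFE3, in capitals. The windows lie at chr16:45158579-45158878 on the plus strand for Atg3, chr10:44268089-44268388 on the plus strand for Atg5 and chr11:50210771-50211070 on the minus strand for Sqstm1.
Atg3: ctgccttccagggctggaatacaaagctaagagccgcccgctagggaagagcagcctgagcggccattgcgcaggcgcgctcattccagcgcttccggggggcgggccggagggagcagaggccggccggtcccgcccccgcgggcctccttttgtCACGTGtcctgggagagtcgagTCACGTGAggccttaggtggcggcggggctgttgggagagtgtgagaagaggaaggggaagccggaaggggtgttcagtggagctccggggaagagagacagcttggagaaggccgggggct
Atg5: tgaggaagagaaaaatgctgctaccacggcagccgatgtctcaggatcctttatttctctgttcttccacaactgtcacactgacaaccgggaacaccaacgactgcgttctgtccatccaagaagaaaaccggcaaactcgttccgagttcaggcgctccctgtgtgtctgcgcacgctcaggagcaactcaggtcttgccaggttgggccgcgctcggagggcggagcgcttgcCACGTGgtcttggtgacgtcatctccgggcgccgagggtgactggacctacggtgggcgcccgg
Sqstm1: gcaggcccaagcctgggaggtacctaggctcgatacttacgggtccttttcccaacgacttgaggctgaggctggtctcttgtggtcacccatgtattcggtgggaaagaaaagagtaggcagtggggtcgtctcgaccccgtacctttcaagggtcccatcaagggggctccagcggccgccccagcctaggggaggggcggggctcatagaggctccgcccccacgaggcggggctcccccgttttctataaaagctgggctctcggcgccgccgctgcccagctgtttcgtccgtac

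Counted from the start site, Atg3 holds E-boxes whose first bases lie at -94 and -71, the second inside a CLEAR core at -72, and Atg5 holds 1 at -14. Neither motif is in the Sqstm1 window, which says only that these letters are absent from these 300 bases. Both motifs read the same on either strand, and every CLEAR core contains an E-box. Of the 42 members, 35 had at least 1 promoter in the RefSeq table, 42 windows in all. The E-box was present in 4 of these windows (9.52%), those of Atg3, Atg5, Atg7 and Atg14, against 2349 of 32851 windows of the same length in the whole table (7.15%). The CLEAR core was in 1 member window (2.38%), against 0.974% of all windows. The RefSeq start sites behind the Atg7 and Atg14 windows lie 27999 and 2215 bases inside the gene as GENCODE release M21 draws it, so these may not be the main promoters. All 4 genes with an E-box were higher in the knockout, and so were 20 of the 31 genes with a window and no E-box. Over all tested genes 31.9% were higher. The share among all genes with an E-box was not counted, and a link between motif and change was not tested. A match is a run of letters and not a bound site.

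More members were higher than lower in the knockout. Every fold change sets knockout over wild type. A gene is said to have risen or fallen where edgeR's quasi-likelihood test, adjusted by Benjamini-Hochberg over all 14877 genes tested, gave an adjusted p below 0.05. By this rule 27 of the 41 tested members rose, 3 fell (Ulk2, Pik3r4 and Atg4b) and 11 did not pass. Over all tested genes 31.9% rose and 32.1% fell, so most expressed genes passed in one direction or the other. In bulk RNA, fewer cells of a type and less RNA per cell cannot be told apart. The median log2 fold change was 0.46 over the tested members and -0.01 over all tested genes, while the median size regardless of sign was 0.48 over the members and 0.47 over all genes. Against a fold of 1.5, tested with glmTreat of edgeR, 14 members rose, where the background is 13.5% of all genes higher and 13.2% lower. No member fell by that measure: 0 at an unadjusted p under 0.05 with glmTreat and 0 with DESeq2. The knockout and wild-type libraries did not overlap in 30 members, 73.2% of those tested, against a background of 68.3%.

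Summed over the 42 members, the libraries held 5882, 6358 and 6322 CPM in knockout 1, 2 and 3, against 2737, 2812 and 2826 CPM in wild type 1, 2 and 3. Sqstm1 alone made up 49.1% of this sum in knockout and 24.8% in wild type. Without it the sum was 3149 ± 18.3 CPM in knockout and 2098 ± 10.7 CPM in wild type (SD, n = 3 libraries each).

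**Figure D1:**
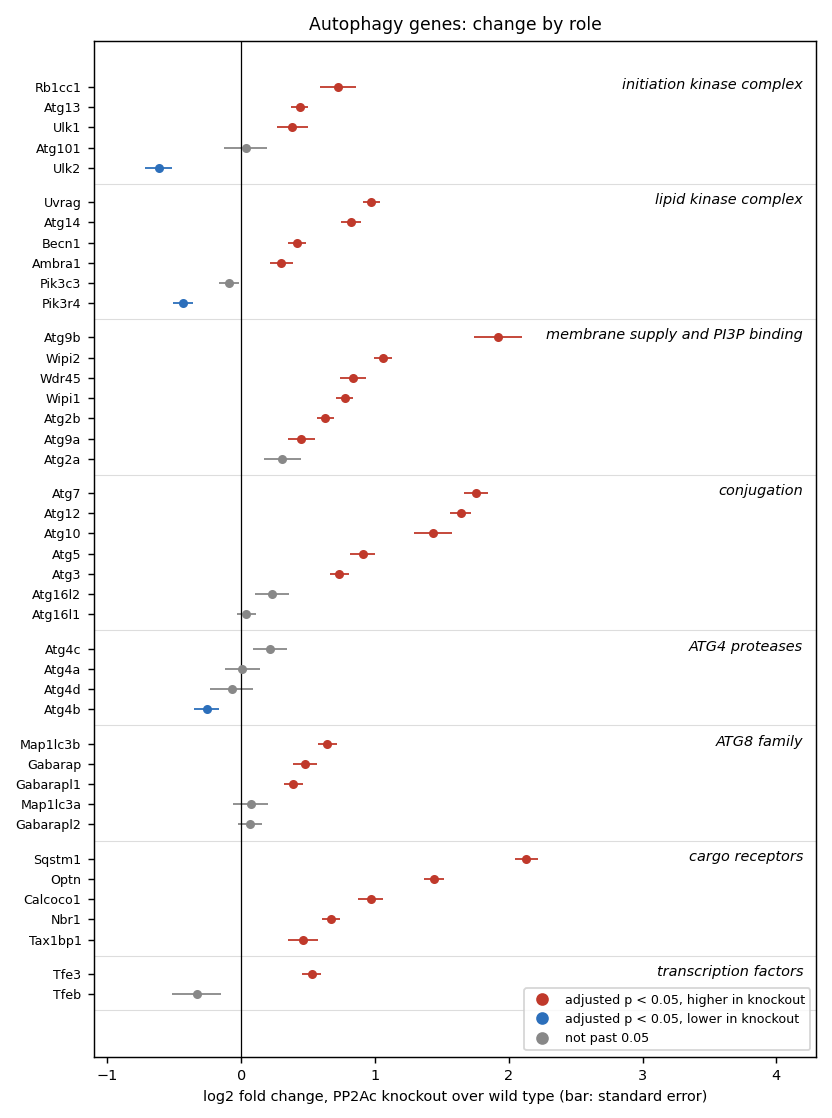
Log2 fold change of the 41 tested members, knockout over wild type, grouped by role, with the standard error as a horizontal bar. Sqstm1 stands at 2.13 and Ulk2, the lowest, at -0.62. All 5 cargo receptors lie to the right of 0, as do 7363 of all 14877 tested genes.

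The cargo receptors all rose. They bind ubiquitin or other tags on cargo at one end and ATG8 proteins at the other. Sqstm1 (ENSMUSG00000015837.15, chromosome 11, 50199366 to 50210827, minus strand, GRCm38) had 2750, 3190 and 3175 CPM in knockout libraries 1, 2 and 3, against 651, 709 and 720 CPM in wild-type libraries 1, 2 and 3. Every knockout library was thus above every wild-type library, with number 1 the lowest in each group. The log2 fold change was 2.13 (standard error 0.08, adjusted p = 1.03e-07), a 4.38-fold higher level. Of the Sqstm1 exon bases 17.3% lie opposite exons of Mrnip, which had 2.19 CPM in knockout and 2.71 CPM in wild type.

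Optn, encoding optineurin, a receptor for ubiquitinated mitochondria and bacteria (chromosome 2, 5020642 to 5064051, minus strand), had 32.2, 32.6 and 33.4 CPM in knockout 1, 2 and 3, against 11.8, 12.4 and 11.9 CPM in wild type 1, 2 and 3. The libraries of each group lay close together and far from the other group, at a log2 fold change of 1.44 (standard error 0.08, adjusted p = 4.89e-07). Calcoco1, a receptor for endoplasmic reticulum and Golgi membranes, averaged 117 ± 8.32 CPM in knockout and 59.8 ± 6.18 CPM in wild type. Nbr1, which works with p62 on protein aggregates, averaged 272 ± 13.2 CPM in knockout and 170 ± 6.4 CPM in wild type. Tax1bp1, a receptor that also restrains NF-kB signalling, rose least, to 240 ± 29.4 CPM in knockout against 174 ± 20.7 CPM in wild type (log2 fold change 0.46, standard error 0.11, adjusted p = 0.0054). The share of Sqstm1 among the 5 receptor messages, taken as CPM per kb of exon, was 90.7 ± 1.04% in knockout and 78.7 ± 1.45% in wild type.

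**Figure D2:**
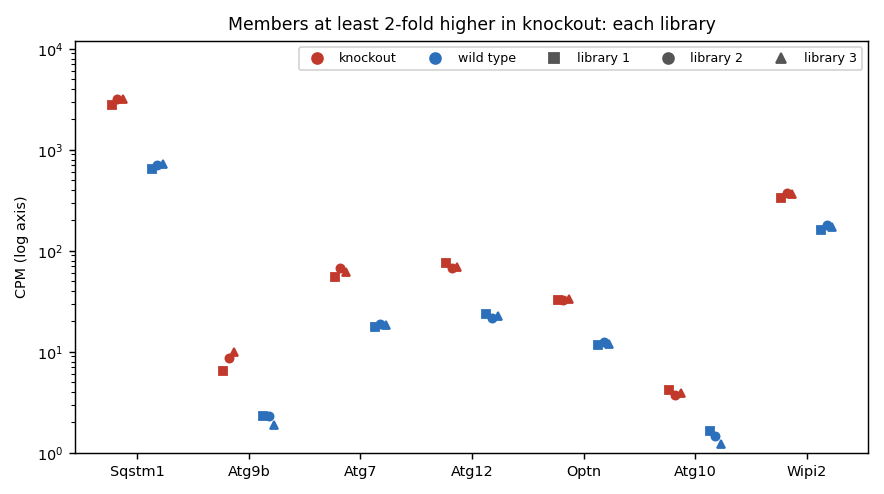
CPM of each library, on a log axis, for the 7 members that rose by at least 1 on the log2 scale, with knockout left of wild type for each gene and a symbol for each library number. The genes run from Sqstm1 with a mean of 3038 CPM in knockout to Atg10 with 3.93. In all 7 the 3 knockout points lie above the 3 wild-type points. These genes were picked by their rise in the same libraries, so this separation is no further support for it. Over all tested genes the groups do not overlap in 68.3%.

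In the conjugation group 5 of 7 genes rose, beside 31.9% of all tested genes. All 5 also passed the test against a fold of 1.5, beside 13.5% of all tested genes. Atg7, the E1-like enzyme that activates both ATG12 and the ATG8 proteins (chromosome 6, 114643097 to 114860614, plus strand), had 55.1, 67.4 and 62.2 CPM in knockout 1, 2 and 3, against 17.8, 18.7 and 18.3 CPM in wild type 1, 2 and 3. Its log2 fold change was 1.75 (standard error 0.09, adjusted p = 4.58e-07). Atg12, the ubiquitin-like protein that is joined to ATG5, had 75.1, 67.6 and 68.9 CPM in knockout 1, 2 and 3, against 23.9, 21.4 and 22.5 CPM in wild type 1, 2 and 3. It rose by 1.64 (log2; standard error 0.08; adjusted p = 3.08e-07), again with no overlap between the groups.

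Atg10, the E2-like enzyme for ATG12 (chromosome 13, 90935356 to 91223968, minus strand), was far rarer, with 4.17, 3.73 and 3.88 CPM in knockout 1, 2 and 3, against 1.62, 1.47 and 1.23 CPM in wild type 1, 2 and 3. Its log2 fold change was 1.43 (standard error 0.14, adjusted p = 2.85e-05), and every knockout library lay above every wild-type library. Atg3, the E2-like enzyme for ATG8 proteins, was the most abundant of the group per kb of exon in both knockout and wild type, with 95.9, 88.6 and 87.7 CPM in knockout 1, 2 and 3, against 57.5, 51.8 and 54.3 CPM in wild type 1, 2 and 3. It rose by 0.73 on the log2 scale (adjusted p = 2.6e-05), and Atg5, the partner of ATG12, rose by 0.91 (adjusted p = 3.35e-05), to 43.7 ± 4.25 CPM in knockout against 23.3 ± 1.49 CPM in wild type. The scaffold Atg16l1, which positions the ATG12-ATG5 conjugate on the membrane, did not pass, at 59.1 ± 3.84 CPM in knockout and 57.5 ± 1.44 CPM in wild type (adjusted p = 0.652). Its paralog Atg16l2 averaged 16.3 ± 2.68 CPM in knockout and 13.9 ± 0.72 CPM in wild type (adjusted p = 0.136, and 0.0122 with replicate number added as a block). The adjusted p of Atg16l2 was 0.00584 without knockout 1 and ran from 0.000718 to 0.4 over 13 alternative settings.

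The ATG4 proteases trim ATG8 proteins before conjugation and release them afterwards. None of the 4 rose, with 0 higher at an unadjusted p under 0.05 in edgeR and 0 called higher by DESeq2. Over all tested genes 31.9% rose and 32.1% fell, so 4 genes are too few to set this group apart. Atg4b, which drew the most reads of the 4, had 39.7, 48.7 and 48.5 CPM in knockout 1, 2 and 3, against 51.7, 54.3 and 57.6 CPM in wild type 1, 2 and 3. The groups did not overlap, and the gene fell by 0.26 (log2; standard error 0.09; adjusted p = 0.0386). That call was lost without knockout 1 (adjusted p = 0.0866), knockout 3 (0.0507), wild type 2 (0.0892) or wild type 3 (0.13) and with DESeq2 (0.0515), within a range of 0.000116 to 0.13 over 13 alternative settings. Atg4a averaged 23.5 ± 2.74 CPM in knockout and 23.3 ± 3.63 CPM in wild type, Atg4c 7.78 ± 1.14 CPM in knockout and 6.71 ± 0.448 CPM in wild type, and Atg4d 11.5 ± 2.28 CPM in knockout and 12.1 ± 1.73 CPM in wild type, none of which passed. Atg4c passed without knockout 2 (adjusted p = 0.0442, against 0.169 with all libraries), within a range of 0.0442 to 0.4. Kri1 on the opposite strand covers 19.3% of the Atg4d exon bases and had 62.8 CPM in knockout and 48 CPM in wild type, more than Atg4d itself, so reads of the pair may be mixed. Reads that Atg4a shares with Atg4a-ps may have been left out or misplaced, since the counting settings are not given.

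In the ATG8 family, whose products carry the lipid anchor, 3 of 5 genes rose, beside 31.9% of all tested genes. None reached the call against a fold of 1.5 with edgeR, beside 13.5% of all tested genes. These 5 genes are too few to set apart from those shares. Gabarap, the most abundant of the family, had 182, 157 and 155 CPM in knockout 1, 2 and 3, against 130, 108 and 116 CPM in wild type 1, 2 and 3. Number 1 was highest in both groups, and the log2 fold change was 0.48 (standard error 0.09, adjusted p = 0.00168). Map1lc3b, the source of LC3B, the usual marker protein of autophagosomes, rose by 0.64 (adjusted p = 6.38e-05), to 124 ± 8.76 CPM in knockout against 79.3 ± 2.32 CPM in wild type. Gabarapl1 rose by 0.39 (adjusted p = 0.00117), and 28.3% of its exon bases lie opposite a gene with under 0.5 CPM in either group. Map1lc3a was at 34.9 ± 5.95 CPM in knockout and 33.3 ± 3.59 CPM in wild type (adjusted p = 0.655), and Gabarapl2 at 33.8 ± 2.31 CPM in knockout and 32.2 ± 2.54 CPM in wild type (adjusted p = 0.521). Per kb of exon, Gabarap supplied 44.4 ± 4.14% of the family's messages in knockout and 41.1 ± 2.83% in wild type, and Map1lc3b 8.22 ± 0.64% in knockout and 6.79 ± 0.267% in wild type. The Map1lc3b share rests on a merged exon length of 7517 bases, against 1181 to 2325 for the other genes of the family. It is too low if the long isoforms of Map1lc3b are rare.

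Of the genes for membrane supply and binding of phosphatidylinositol 3-phosphate, 6 of 7 rose, beside 31.9% of all tested genes. Wipi2, which reads that lipid and recruits ATG16L1 (chromosome 5, 142627698 to 142670588, plus strand), had 337, 370 and 368 CPM in knockout 1, 2 and 3, against 162, 180 and 173 CPM in wild type 1, 2 and 3. The log2 fold change of this abundant gene was 1.06 (standard error 0.07, adjusted p = 2.35e-06). Atg9b, a lipid scramblase of the phagophore and the rarer of the paralogs (chromosome 5, 24384181 to 24392143, minus strand), had 6.38, 8.61 and 9.83 CPM in knockout 1, 2 and 3, against 2.33, 2.31 and 1.89 CPM in wild type 1, 2 and 3. It rose by 1.92 (log2; standard error 0.18; adjusted p = 1.84e-05), the second highest value in the set, with a wide spread among the knockout libraries. Of its exon bases 7.45% lie opposite exons of Nos3.

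The main paralog Atg9a rose by 0.45 (adjusted p = 0.00406), to 42 ± 2.48 CPM in knockout against 30.8 ± 3.83 CPM in wild type. The other lipid readers also rose, Wipi1 by 1.71-fold and Wdr45 by 1.78-fold. Same-strand genes cover 31.8% of the Atg9a and 24.7% of the Wdr45 exon bases and had under 0.5 CPM in either group. The lipid transfer gene Atg2b rose to 128 ± 5.23 CPM in knockout against 82.8 ± 2.6 CPM in wild type. Its paralog Atg2a averaged 95.3 ± 14.4 CPM in knockout and 77 ± 12.4 CPM in wild type and did not pass (adjusted p = 0.0833). With the replicate number as a block Atg2a passed (1.72e-06), as it did without knockout 1 (0.00677) or wild type 2 (0.0486) and with no filter on low counts (0.00623), over a range of 1.22e-06 to 0.226.

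The initiation and lipid kinase complexes moved in both directions. Rb1cc1, which encodes FIP200, the scaffold of the ULK1 complex, had 154, 113 and 116 CPM in knockout 1, 2 and 3, against 88.9, 72.6 and 70.7 CPM in wild type 1, 2 and 3. It rose by 0.72 (log2; standard error 0.13; adjusted p = 0.00135), with number 1 highest in both groups. Atg13, the adaptor of the complex, rose by 0.44 (adjusted p = 0.000337).

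The paralogous kinase genes went opposite ways. Ulk1 averaged 73.2 ± 9 CPM in knockout and 56.2 ± 6.78 CPM in wild type (log2 fold change 0.38, adjusted p = 0.0177), whereas Ulk2 was at 10.1 ± 1.01 CPM in knockout and 15.5 ± 0.865 CPM in wild type and fell by 0.62 (adjusted p = 0.00064). The Ulk1 call was lost without knockout 2 (0.0555) or knockout 3 (0.0563), in a range of 7.16e-08 to 0.0563. Atg101, which stabilises ATG13, was at 31 ± 6.57 CPM in knockout and 30.3 ± 3.96 CPM in wild type (adjusted p = 0.862).

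Becn1, the Beclin 1 gene, had 104, 114 and 112 CPM in knockout 1, 2 and 3, against 81.8, 82.2 and 82.6 CPM in wild type 1, 2 and 3. Its log2 fold change was 0.42 (standard error 0.07, adjusted p = 0.00047), and although Cntd1 on the opposite strand covers 43.9% of its exon bases, Cntd1 had under 0.5 CPM in either group. The subunits that define the separate forms of the complex rose most: Uvrag, of the endosomal form, rose to 113 ± 1.65 CPM in knockout against 57.3 ± 1.94 CPM in wild type (log2 fold change 0.97, standard error 0.06, adjusted p = 1.99e-06), with 17.6% of its exon bases opposite a gene under 0.5 CPM. Atg14, of the autophagosomal form, rose to 31.9 ± 1.05 CPM in knockout against 18 ± 0.909 CPM in wild type (log2 fold change 0.82, adjusted p = 2.02e-05). The core subunits did not share this: the catalytic Pik3c3 was at 25.9 ± 0.556 CPM in knockout and 27.7 ± 1.39 CPM in wild type (adjusted p = 0.293), and the regulatory Pik3r4 fell by 0.44, to 19.7 ± 0.709 CPM in knockout against 26.6 ± 0.756 CPM in wild type (adjusted p = 0.000865). Ambra1, a Beclin 1 partner and ubiquitin ligase cofactor, rose by 0.30 (adjusted p = 0.0143).

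Of the transcription factors, Tfe3 had 146, 163 and 157 CPM in knockout 1, 2 and 3, against 103, 111 and 110 CPM in wild type 1, 2 and 3, with no overlap. It rose by 0.53 (log2; standard error 0.07; adjusted p = 0.000157). Tfeb was the rarest tested member per kb of exon in the knockout, at 5.11 ± 1.1 CPM there and 6.44 ± 1.06 CPM in wild type, and did not pass (log2 fold change -0.33, adjusted p = 0.139). With the replicate number as a block it passed as lower (adjusted p = 0.00376), and likewise without wild type 1 (0.0427), over a range of 0.00376 to 0.399. Both factors are controlled largely by phosphorylation and movement into the nucleus, which message counts do not show.

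Levels between genes were compared as CPM per kb of merged exon length from GENCODE M21. Sqstm1 was first in both groups, at 905 CPM per kb in knockout and 207 in wild type. Gabarap followed at 89 ± 8.14 in knockout and 64 ± 5.86 in wild type, and Gabarapl1 at 50.9 ± 3.23 in knockout and 38.9 ± 1.07 in wild type, each separated from its neighbour in the order by more than their SDs. Further down, neighbours were often within their spread: in the knockout Atg7 (8.83 ± 0.884), Atg4a (8.82 ± 1.03) and Optn (8.72 ± 0.16) could not be ordered. Atg7 and Atg12 stood 24th and 23rd of 42 in knockout, against 34th and 32nd in wild type. Merged exons overstate the length of genes whose long isoforms are rare, so this order is approximate.

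**Figure D3:**
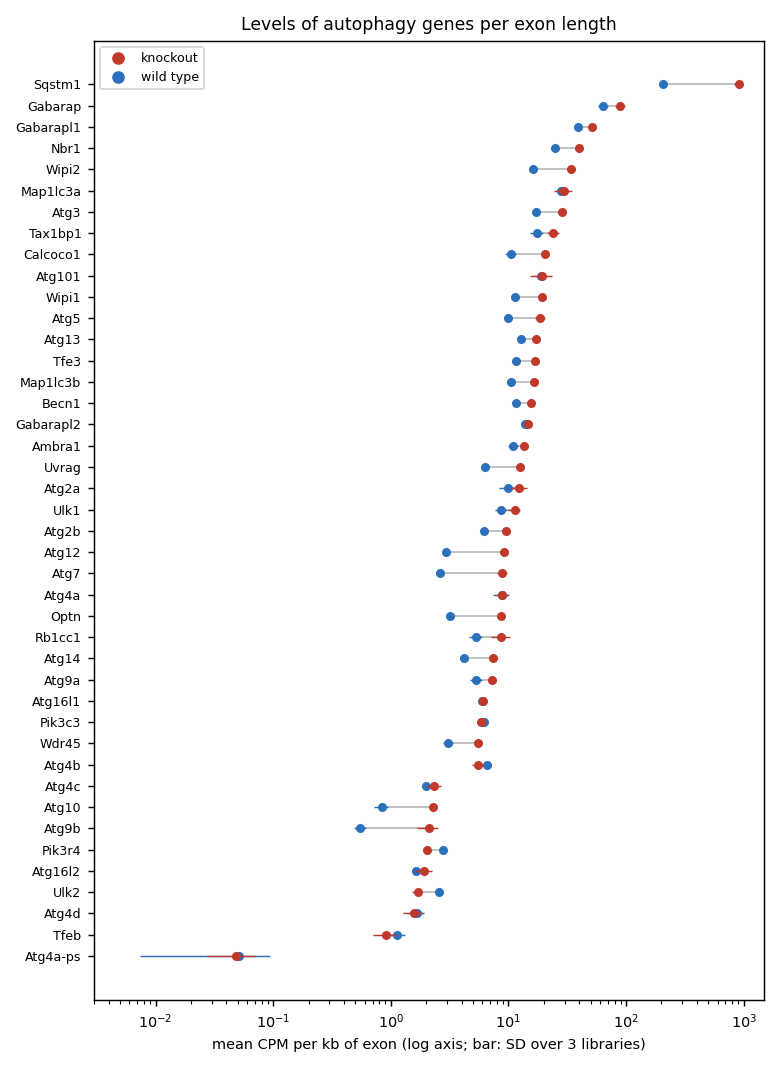
Mean CPM per kb of exon (log axis) of the 42 members in knockout and wild type, ordered by the knockout level, with bars for the SD over 3 libraries. Sqstm1 lies apart from the rest at 905 in knockout and 207 in wild type, and Atg4a-ps lies far below.

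The libraries numbered 1 differed from the others of their groups in the same direction. For 33 of the 41 tested members, the deviation of log2 CPM from the group mean had the same sign in knockout 1 and wild type 1, with a Pearson correlation of 0.75 across these members, given as a description since the members are not replicates. Rb1cc1 (0.28 in knockout 1 and 0.21 in wild type 1), Tax1bp1 (0.20 in knockout 1 and 0.18 in wild type 1) and Atg4a (0.18 in knockout 1 and 0.24 in wild type 1) were above their group means. Tfeb (-0.36 in knockout 1 and -0.29 in wild type 1) and Atg101 (-0.37 in knockout 1 and -0.23 in wild type 1) were below. These libraries also had the largest totals of their groups, 46149908 counts in knockout and 49344079 in wild type, and the part of depth in this pattern was not tested. Without both of them 30 members rose and 4 fell, the added ones being Atg16l2, Atg2a and Gabarapl2 as higher and Tfeb as lower. Calls grew over the whole table as well. In that fit 5588 of 14906 tested genes rose and 5535 fell, against 4752 and 4773 of 14877 with all libraries.

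**Figure D4:**
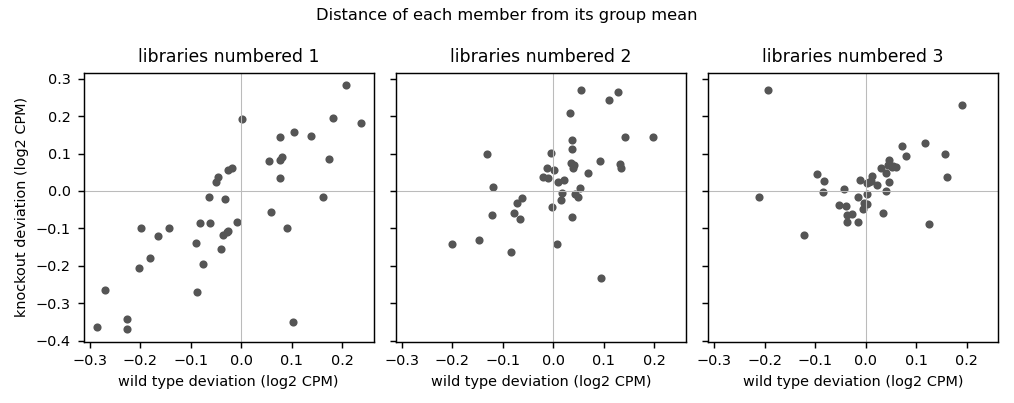
Deviation of each tested member's log2 CPM from its group mean, knockout (vertical) against wild type (horizontal), for libraries numbered 1, 2 and 3. In the panel for number 1 most points lie along the rising diagonal, from Tfeb at -0.36 in knockout and -0.29 in wild type to Rb1cc1 at 0.28 in knockout and 0.21 in wild type, and Atg9b lies off it at -0.35 in knockout and 0.10 in wild type.

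Genes around this machinery were read from 6 lists of the wider pathway that hold no member, 132 genes in all. Of 125 tested, 66 rose, 30 fell and 29 did not pass, with a median log2 fold change of 0.29, beside 31.9% higher and 32.1% lower over all tested genes. Accessory proteins of membrane and lipid handling were mostly higher, with 14 of 19 up and 2 down. C9orf72, part of a complex that regulates autophagy initiation, rose to 36 ± 1.96 CPM in knockout against 9.49 ± 0.724 CPM in wild type. Tecpr1, a tether of autophagosomes and lysosomes, and Epg5, a fusion factor, rose by 1.54 and 1.33 on the log2 scale.

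Among genes of mTORC1 and AMPK control, which include subunits of both complexes, 13 of 36 rose and 13 fell. These shares are near those over all tested genes (31.9% higher and 32.1% lower), so the count is no result about these genes. Deptor, an mTOR inhibitor, fell to 5.56 ± 0.643 CPM in knockout against 32.8 ± 1.25 CPM in wild type. Rragd, a Rag GTPase that is itself a TFEB and TFE3 target, rose to 31.7 ± 4.06 CPM in knockout against 5.85 ± 0.712 CPM in wild type, and Ddit4, a stress-induced mTORC1 inhibitor, rose by 1.61. On a list of regulators of autophagy and of its transcription, 15 of 21 tested genes rose and 3 fell, beside the same 31.9% and 32.1%. The list also holds Dapk, Dram and Trp53inp genes, so the count is not one of transcription regulators alone. Trp53inp1, which binds LC3, was 8.39-fold higher, Ddit3, the stress factor CHOP, 4.27-fold and Foxo3, a forkhead activator of autophagy genes, 3.64-fold.

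Organelle receptors were higher in 12 of 21 cases and lower in 4, beside 31.9% higher and 32.1% lower over all tested genes. Nipsnap1, a mitochondrial tag, fell to 0.792 ± 0.0363 CPM in knockout against 6.06 ± 0.7 CPM in wild type, while Stbd1, a glycogen receptor, and Trim13, a ubiquitin ligase of the endoplasmic reticulum, rose by 1.80 and 1.03 on the log2 scale. In the fusion list 9 of 21 rose and 4 fell, which beside the same shares is not read as a result about fusion. Plekhm1, an adaptor of late endosomes, and Lamp2, a lysosomal membrane protein, both rose by 0.88, and Rab7b fell by 1.26. Of 8 tested genes linked to LC3-associated phagocytosis and other non-canonical uses 3 rose and 4 fell, too few to set apart from those shares. Trim21, a cytosolic antibody receptor, rose by 1.18 and Irgm1, an interferon-inducible GTPase, by 0.33, while Trim16, a galectin-binding regulator, fell by 0.51.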

How the data were processed

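The deposited table gives whole-number counts of reads for each symbol in each library, which the authors made from poly(A)-selected RNA. HTSeq 0.11.2, STAR 2.7.1a, limma 3.48.3, edgeR 3.34.0 and fastp 0.20.0 are named, without roles, in the submitters' processing notes, as are GRCm38 and mm10. Which annotation and strand setting were used is not given in the sources used here, so reads of genes overlapping on opposite strands cannot be told apart.

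Columns were matched to samples by title, with 0 columns of other samples. Genes were kept by filterByExpr (14877 of 55453 symbols), scaled by TMM and tested with glmQLFit and glmQLFTest of edgeR 4.0.16 (R 4.3.3), with Benjamini-Hochberg adjustment over all tested genes at 0.05. The call against a fold of 1.5 used glmTreat. CPM values use the library total times the TMM factor, and means ± SD are over n = 3. Standard errors are the log2 fold change divided by the root of F. The tests were tried on simulated data first. Positions, exon lengths and overlaps come from GENCODE M21 (GRCm38), promoters from RefSeq (GRCm38.p6).

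The members and lists were chosen with earlier results of these data known. Values of all 6 libraries are given for members that passed with an absolute log2 fold change of at least 1 and for the member with the highest CPM of each role. From each wider list, up to 3 genes with the largest change that passed and reached 5 CPM in a group are named.

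Deviations from the group mean correlated at 0.44, 0.16 and 0.15 between same-numbered libraries for numbers 1, 2 and 3 over 14877 genes. The highest correlation of knockout 1, 2 and 3 with a differently numbered wild-type library was -0.25, 0.19 and 0.15. By this measure number 1 alone stood out, and the wild-type libraries were not scanned in the same way. All 3 being above 0.1, the level set for pairing, the number was also fitted as a block. Deviations within a group sum to 0, so a shift shared by the libraries numbered 1 also raises the values for 2 and 3. For 2 and 3 the correlation was no higher than with a different number. Passing the level therefore does not show that the numbers pair the samples, and the block is given only as an alternative. Alternatives were DESeq2 1.42.0 and its size factors, upper-quartile factors, 2 other filters (at least 1 CPM in 3 libraries, or any count), the block, and leaving libraries out.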

Additional observations from a re-analysis of the deposited data

How the results depend on the processing

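Of the 30 members that rose or fell, 29 kept that call under DESeq2 size factors, upper-quartile factors and the DESeq2 test, and 28 kept it in each of 7 fits, 6 without 1 library and 1 without both numbered 1. Exceptions were Atg4b and Ulk1, given above. Leaving out 1 library gave 26 to 29 members higher and 2 to 4 lower, beside 4258 to 4942 genes higher and 4199 to 4759 lower over the whole table. With the replicate number as a block 29 rose and 4 fell, the change lying in Atg16l2, Atg2a and Tfeb, and no other member's call changed. The block also raised the calls over the whole table, to 5721 genes higher and 5774 lower, against 4752 and 4773 without it. The sign turned in Atg101, Atg16l1, Atg4a, Atg4d and Map1lc3a, none past the threshold where it did. With upper-quartile factors, which moved the median of all genes by -0.06, Atg101 stood at -0.0289, Atg16l1 at -0.0248 and Atg4a at -0.0565 on the log2 scale. Leaving out 1 library gave -0.0790 to 0.2119 for Atg101, -0.0846 to 0.1395 for Atg4a, -0.1854 to 0.0962 for Atg4d and -0.0675 to 0.1717 for Map1lc3a. The cause was not tested. The test against a fold of 1.5, stricter by construction, left 2009 genes higher and 1957 lower, 14 members higher and 0 lower, and 31 genes of the wider lists higher and 10 lower. The 8-base motif in place of the E-box left 2.38% of member windows. Depth limits Atg4a-ps, with at most 9 counts in a library. The planned comparison of proteins was not run.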
